A study of Homo sapiens with 2 samples.

Results

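The genes described here are 10 feedback inhibitors of transforming growth factor beta (TGF-beta) signalling, PMEPA1, LDLRAD4, SMAD6, SMAD7, BAMBI, SMURF1, SMURF2, SKI, SKIL and TGIF1, in 2 RNA-seq libraries of the human lung adenocarcinoma line A549. They were taken by symbol from a deposited table of 56255 gene symbols, and each stood on 1 row. The list was drawn up with earlier results of these data known, so its levels and changes are a description. 1 library came from A549 cells overexpressing MYOCD, the gene of myocardin, which in heart and smooth muscle binds SRF and switches on its target genes, and 1 from A549 cells with no treatment (WT). Both cultures were grown in DMEM with serum, and the vector, the promoter behind MYOCD, any selection and the number of clones are not stated in the labels. The WT cells are not described as carrying a control vector, so effects of MYOCD and of its delivery cannot be told apart. With 1 library a group there is no replicate error, and no test was made.

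TGF-beta binds a pair of receptor kinases that phosphorylate SMAD2 and SMAD3, which join SMAD4 and act on target genes in the nucleus. Several of those targets encode proteins that switch the signal off again. They act at each step: BAMBI and the inhibitory SMADs at the receptor, the SMURF ubiquitin ligases on receptors and SMADs, PMEPA1 and LDLRAD4 on SMADs held at membranes, and SKI, SKIL and TGIF1 on SMADs bound to DNA. In epithelial tumour cells such as A549, TGF-beta is known for driving epithelial-mesenchymal transition.

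Levels are RPKM, reads scaled to the length of a gene and the size of a library, as the authors deposited them. A log2 change is log2((MYOCD RPKM + 0.5)/(WT RPKM + 0.5)), which understates the change of low genes, and genes with at least 1 RPKM in a library were counted. A gene with a log2 change of at least 1 in size is called higher or lower by 2-fold, which is a size threshold without a test. MYOCD itself had 48.6 RPKM in the MYOCD library and 0.304 RPKM in the WT library, in the direction of the labels. Deposited RPKM summed to 880876 in MYOCD and 886700 in WT cells, with 15973 genes at or over 1 RPKM in MYOCD and 16161 in WT cells, while sequencing depth is unknown. Of 5 epithelial markers, KRT8 (1059 RPKM in MYOCD and 1523 RPKM in WT cells) and KRT18 (1134 and 1647 RPKM in MYOCD and WT cells) were abundant and CDH1 stood at 35.8 RPKM in MYOCD and 35.01 RPKM in WT cells. KRT19 (3.24 and 2.94 RPKM in MYOCD and WT cells) and EPCAM (2.57 and 0.889 RPKM in MYOCD and WT cells) were low, and CDKN2A, a gene deleted in A549, was listed at 0 in MYOCD and stood at 0.0950 RPKM in WT cells. Of 4 endothelial markers, CDH5, VWF and KDR were listed at 0 in both libraries and PECAM1 stood at 0.139 RPKM in MYOCD and 0.00689 RPKM in WT cells. The 5 blood cell markers summed to 26.5 RPKM in MYOCD and 20.6 RPKM in WT cells, nearly all of it CD68 (25.1 RPKM in MYOCD and 18.3 RPKM in WT cells) and CD14 (1.17 and 2.31 RPKM in MYOCD and WT cells), while PTPRC and CD3E were listed at 0 in both libraries. The 5 fibroblast markers summed to 15.6 RPKM in MYOCD and 5.51 RPKM in WT cells, mostly COL1A1 (14.3 and 3.05 RPKM in MYOCD and WT cells). THY1 (0.959 and 1.91 RPKM in MYOCD and WT cells) and PDGFRB (0.00968 and 0.432 RPKM in MYOCD and WT cells) were lower in MYOCD cells. COL1A2 (0.174 and 0 RPKM in MYOCD and WT cells) and COL3A1 (0.138 and 0.109 RPKM in MYOCD and WT cells) were low in both.

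Promoter sequences from RefSeq (GRCh38.p14) are shown for PMEPA1 and SMAD6, the members with the largest change upward and downward among those counted, and for SMAD7, the closest relative of SMAD6. Each window runs 5′ to 3′ on the gene's strand, from 250 bases before an annotated start to 50 after it. Capitals mark CAGAC, the core of the SMAD box, on either strand (GTCTG on the other), or GTCTAGAC, the palindromic SMAD-binding element. The PMEPA1 window is 1 of 4 of that gene and lies at chr20:57709966-57710265 on the minus strand. The SMAD6 window is the 1 listed for that gene, at chr15:66701986-66702285 on the plus strand. The SMAD7 window is 1 of 3, at chr18:48950916-48951215 on the minus strand. Of several windows the one with the most matches is shown.
PMEPA1: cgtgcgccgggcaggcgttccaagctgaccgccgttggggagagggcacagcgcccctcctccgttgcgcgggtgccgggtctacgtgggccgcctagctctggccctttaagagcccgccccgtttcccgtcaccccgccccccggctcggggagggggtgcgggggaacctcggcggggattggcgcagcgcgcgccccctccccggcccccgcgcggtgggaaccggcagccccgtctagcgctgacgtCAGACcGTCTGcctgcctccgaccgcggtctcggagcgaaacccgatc
SMAD6: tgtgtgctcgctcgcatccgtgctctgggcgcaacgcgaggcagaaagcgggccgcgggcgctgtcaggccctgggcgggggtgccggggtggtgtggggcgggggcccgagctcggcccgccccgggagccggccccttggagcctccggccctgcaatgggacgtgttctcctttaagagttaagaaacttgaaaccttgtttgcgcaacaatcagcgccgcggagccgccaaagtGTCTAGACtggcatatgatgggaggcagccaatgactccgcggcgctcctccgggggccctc
SMAD7: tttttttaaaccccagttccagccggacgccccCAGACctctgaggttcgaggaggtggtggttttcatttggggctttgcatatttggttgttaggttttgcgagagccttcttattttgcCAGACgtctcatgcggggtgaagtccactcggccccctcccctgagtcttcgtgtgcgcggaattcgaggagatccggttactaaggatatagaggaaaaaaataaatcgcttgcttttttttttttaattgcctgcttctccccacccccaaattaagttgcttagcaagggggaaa

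In the PMEPA1 window CAGAC began at base 3 of the annotated transcript and GTCTG at base 9, with a single base between them. The SMAD6 window held GTCTAGAC, beginning 12 bases before the start (position -12), and no CAGAC. The SMAD7 window held CAGAC at positions -217 and -128. Among the RefSeq windows, 9 of the 10 members matched, with 28 windows, of which 20 held CAGAC on either strand against 45.3% of all 35114 windows of the same length. Several windows of PMEPA1, LDLRAD4, SMAD7 and TGIF1 belong to 1 gene and can overlap, so they are not separate cases. GTCTAGAC, which reads the same on both strands and does not contain CAGAC, was in 1 of the 28 and in 0.202% of all windows. The CArG box bound by SRF, the partner of myocardin, was in 0 of the 28 and in 1.29% of all windows. These are matches of letters near annotated starts, and binding was not measured.

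Of the 10 inhibitors, 1 was higher in MYOCD cells by 2-fold or more and 0 were lower. The remaining 8 of the 9 counted lay under 2-fold, and LDLRAD4 did not reach 1 RPKM in either library. Over all 17350 counted genes 11.8% were at or beyond 2-fold, 5.42% higher and 6.35% lower. Over the 12337 counted protein-coding genes, the class to which all 10 belong, the shares were 6.11%, 3.02% and 3.1%. The count for the inhibitors rests on PMEPA1. The median log2 change of the 9 was -0.13, with 4 above and 5 below 0, beside -0.00 over all counted genes and 0.00 over the protein-coding ones.

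**Figure D1:**
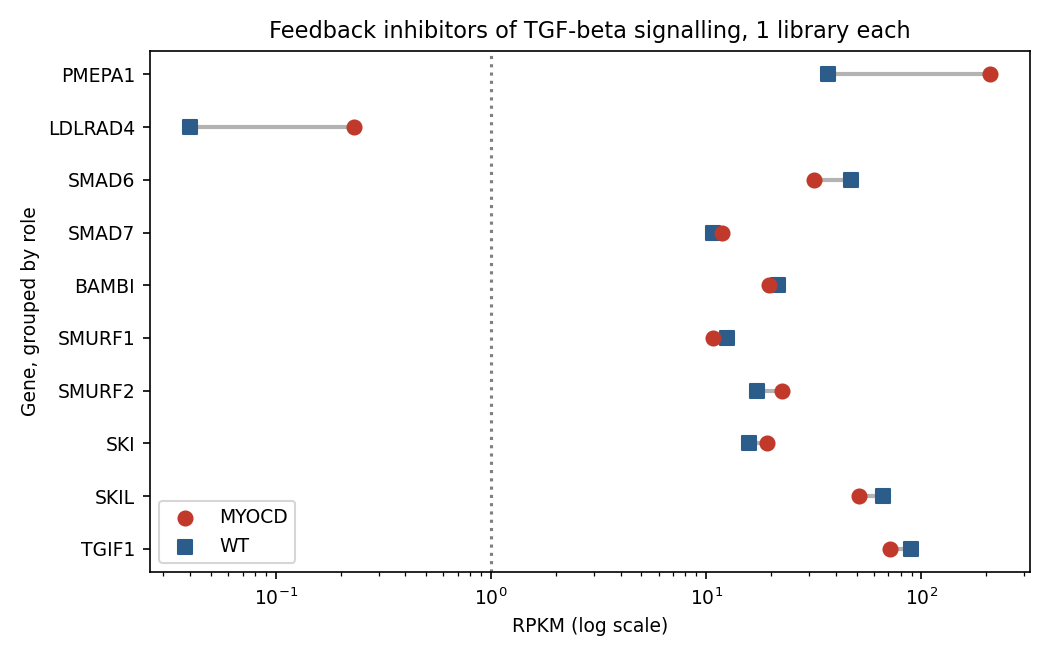
RPKM (log axis) of the 10 feedback inhibitors in the MYOCD library (circles) and the WT library (squares), grouped by role, with a dotted line at 1 RPKM. PMEPA1 stands at 207.8 RPKM in MYOCD and 36.6 RPKM in WT cells, LDLRAD4 lies under the line in both, and the other 8 pairs lie close together.

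PMEPA1 encodes a membrane protein of endosomes that binds SMAD2 and SMAD3 and keeps them from the receptor, and that recruits ubiquitin ligases of the NEDD4 family. The gene (ENSG00000124225) lies on chromosome 20 from 57648392 to 57711536 on the minus strand (GRCh38). It stood at 207.8 RPKM in MYOCD cells and 36.6 RPKM in WT cells, a ratio of 5.67 and a log2 change of 2.49. Of the 12337 counted protein-coding genes, 29 had a larger upward change. In level, 2.94% of those genes stood above PMEPA1 in MYOCD cells, against 23.5% in WT cells. Among 1317 other protein-coding genes with a mean RPKM within 2-fold of the PMEPA1 mean of 122.2, 14 were higher and 13 lower by 2-fold or more. Of the 1317, 1 had a larger upward log2 change. PMEPA1 was singled out as the member with the largest earlier reported difference, so its place among these genes is a description. The genes of this range with the nearest log2 change were the ribosome biogenesis gene PDCD11 (129 RPKM in MYOCD and 23.4 RPKM in WT cells), the neurotrophin receptor gene NTRK3 (170.9 and 26.8 RPKM in MYOCD and WT cells) and the transglutaminase gene TGM2 (186 and 37.1 RPKM in MYOCD and WT cells). That likeness is over 2 libraries, where any gene with such a ratio qualifies, and TGM2 shares up to 394 nt of exon with RPRD1B on the opposite strand. In a bulk library, more cells with the transcript and more transcript per cell cannot be told apart.

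**Figure D2:**
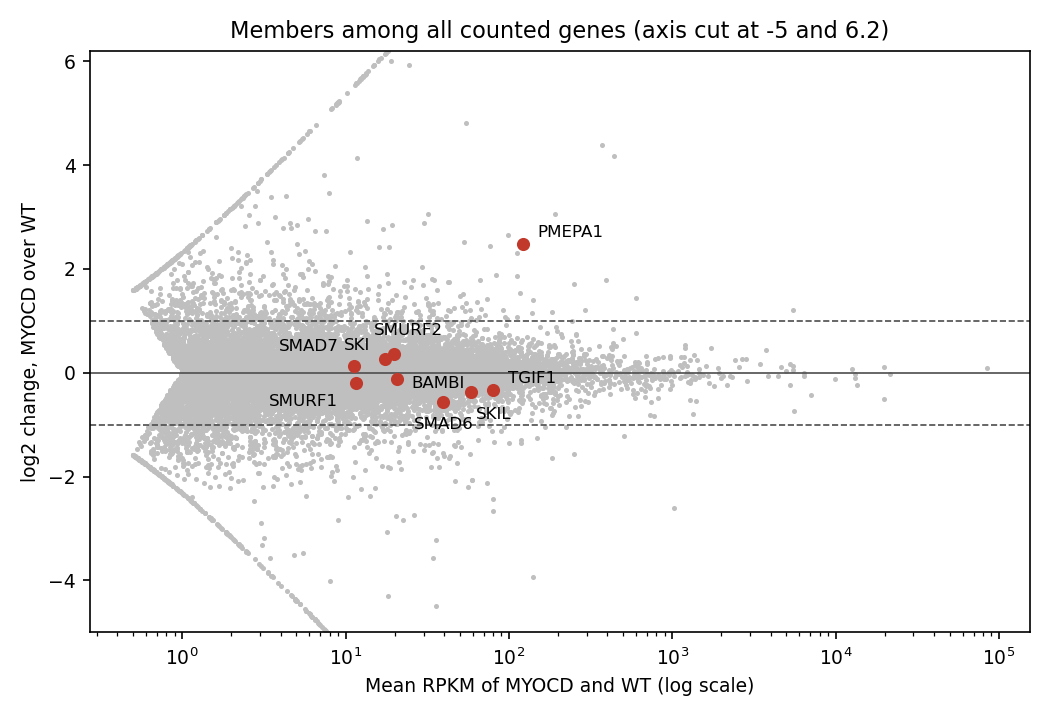
Log2 change of MYOCD over WT against the mean RPKM of both libraries (log axis) for every counted gene (grey) and the 9 counted inhibitors (red); dashed lines mark 2-fold and the vertical axis is cut. PMEPA1 at 2.49 lies far above the dashed line, and the other 8 lie between -0.57 and 0.37.

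The long noncoding RNA gene NKILA is annotated antisense to PMEPA1, and its product is known for restraining NF-kB activation. It was also higher, at 11.7 RPKM in MYOCD cells and 1.33 RPKM in WT cells, a log2 change of 2.74. The exons of both genes share a run of up to 213 nt on opposite strands, out of 5619 nt of PMEPA1 exons and 2598 nt of NKILA exons. The use of strand in the counting is not stated, so reads from the shared run cannot be assigned to either gene. Because PMEPA1 is far more abundant, NKILA transcripts and PMEPA1 reads cannot be told apart as the source of the NKILA values. NKILA was named after its value was seen. The protein-coding genes on either side of PMEPA1 did not show such a difference. Among 7 counted within 1 Mb of its start, 0 were at or beyond 2-fold, with log2 changes from -0.68 for BMP7 to 0.46 for RBM38. Over all counted protein-coding genes the share was 6.11%. With so few neighbours a count of 0 is near that share and shows nothing particular to this region.

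**Figure D3:**
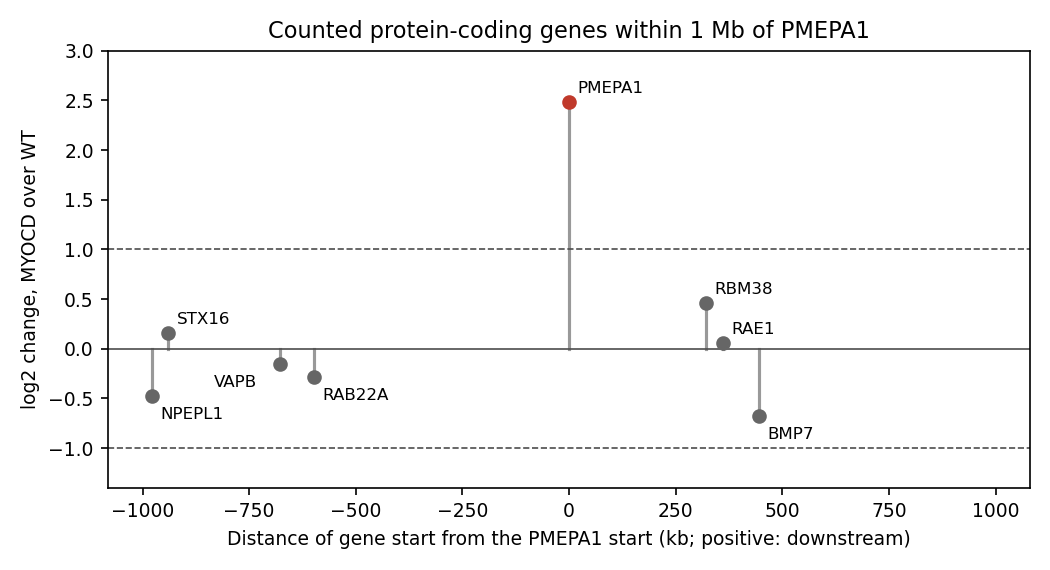
Log2 change of MYOCD over WT for the counted protein-coding genes within 1 Mb of PMEPA1, placed by the distance of their starts from the PMEPA1 start in kb; dashed lines mark 2-fold. PMEPA1 stands at 2.49, and its 7 neighbours lie between -0.68 and 0.46.

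LDLRAD4 encodes a relative of PMEPA1 with the same kind of action on SMADs, and lies on chromosome 18 from 13217498 to 13652755. It stood at 0.231 RPKM in MYOCD cells and 0.0397 RPKM in WT cells. The ratio of the deposited values, 5.82, was close to that of PMEPA1, but on the log2 scale with the pseudocount the change was 0.44. At such low values the ratio is uncertain, and no change is read from it. In both libraries LDLRAD4 was the lowest of the 10, and the sum of both membrane proteins, 208.01 RPKM in MYOCD and 36.7 RPKM in WT cells, was nearly all PMEPA1.

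The inhibitory SMADs did not follow PMEPA1. SMAD7, which blocks the TGF-beta type I receptor and brings SMURF ligases to it, is itself a classical early target of TGF-beta. It lies on chromosome 18 from 48919853 to 48952052 and stood at 11.8 RPKM in MYOCD cells and 10.8 RPKM in WT cells, a log2 change of 0.13. Of the protein-coding genes, 70.2% differed more in size. SMAD6, which acts mainly on BMP signalling and is induced by BMP, lies on chromosome 15 from 66702228 to 66782848. It stood at 31.6 RPKM in MYOCD cells and 46.98 RPKM in WT cells, a log2 change of -0.57, the lowest of the counted members, and 18.4% of protein-coding genes differed more. Their sum was 43.4 RPKM in MYOCD and 57.8 RPKM in WT cells. The SMAD6 to SMAD7 ratio within a library was 2.67 in MYOCD and 4.36 in WT cells, a measure that no scaling between the libraries can alter.

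BAMBI encodes a receptor-like membrane protein without a kinase domain, which takes a receptor's place in the complex. On chromosome 10 from 28677342 to 28682939, it stood at 19.6 RPKM in MYOCD and 21.5 RPKM in WT cells, a log2 change of -0.13 that 71.01% of protein-coding genes exceeded in size. The ubiquitin ligase gene SMURF1, on chromosome 7 from 99027438 to 99144100, stood at 10.8 RPKM in MYOCD and 12.4 RPKM in WT cells, a log2 change of -0.20. SMURF2, on chromosome 17 from 64542295 to 64662068, stood at 22.4 RPKM in MYOCD and 17.3 RPKM in WT cells, a log2 change of 0.37. The ligases therefore lay on opposite sides of 0, and SMURF2 exceeded SMURF1 by 2.08 times in MYOCD cells and 1.39 times in WT cells. SMURF1 shares up to 202 nt of exon with TRRAP and SMURF2 up to 167 nt with CEP95, each on the opposite strand. TRRAP had 18.9 RPKM in MYOCD and 14.8 RPKM in WT cells, and CEP95 had 38.3 RPKM in MYOCD and 35.96 RPKM in WT cells.

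TGIF1 and SKIL, 2 of the 3 nuclear corepressors, stood next below PMEPA1 in MYOCD cells and had the highest levels of the 10 in WT cells. TGIF1, which encodes a homeobox protein that competes with coactivators for SMADs, lies on chromosome 18 from 3411608 to 3459978. It stood at 71.3 RPKM in MYOCD and 89.3 RPKM in WT cells, a log2 change of -0.32. The product of SKIL, also called SnoN, holds SMAD target genes silent until TGF-beta triggers its breakdown, and TGF-beta then induces the gene. SKIL, on chromosome 3 from 170357678 to 170396835, stood at 51.3 RPKM in MYOCD and 66.5 RPKM in WT cells, a log2 change of -0.37. The proto-oncogene SKI, its paralog, on chromosome 1 from 2228695 to 2310119, stood at 19.2 RPKM in MYOCD and 15.8 RPKM in WT cells, a log2 change of 0.27. TGIF1 and SKIL kept nearly the same ratio to each other, 1.39 in MYOCD and 1.34 in WT cells, whereas SKIL exceeded SKI by 2.67 times in MYOCD and 4.20 times in WT cells. The sum of the 3 corepressors was 141.7 RPKM in MYOCD and 171.7 RPKM in WT cells.

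The order of the levels differed at its head. In MYOCD cells it ran PMEPA1, TGIF1, SKIL, SMAD6, SMURF2, BAMBI, SKI, SMAD7, SMURF1 and LDLRAD4. In WT cells it ran TGIF1, SKIL, SMAD6, PMEPA1, BAMBI, SMURF2, SKI, SMURF1, SMAD7 and LDLRAD4. Neighbours in the middle, such as BAMBI and SMURF2 or SMAD7 and SMURF1, differed little and with 1 library each their order has no error attached. PMEPA1 made up 46.6% of the summed RPKM of the 10 in MYOCD cells and 11.5% in WT cells. That sum was 446.1 RPKM in MYOCD and 317.3 RPKM in WT cells, while the 9 without PMEPA1 summed to 238.3 RPKM in MYOCD and 280.7 RPKM in WT cells. PMEPA1 exceeded TGIF1, SKIL and SMAD6 by 2.92, 4.05 and 6.58 times in MYOCD cells. In WT cells it stood below them, with 0.410, 0.551 and 0.779 of their levels.

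**Figure D4:**
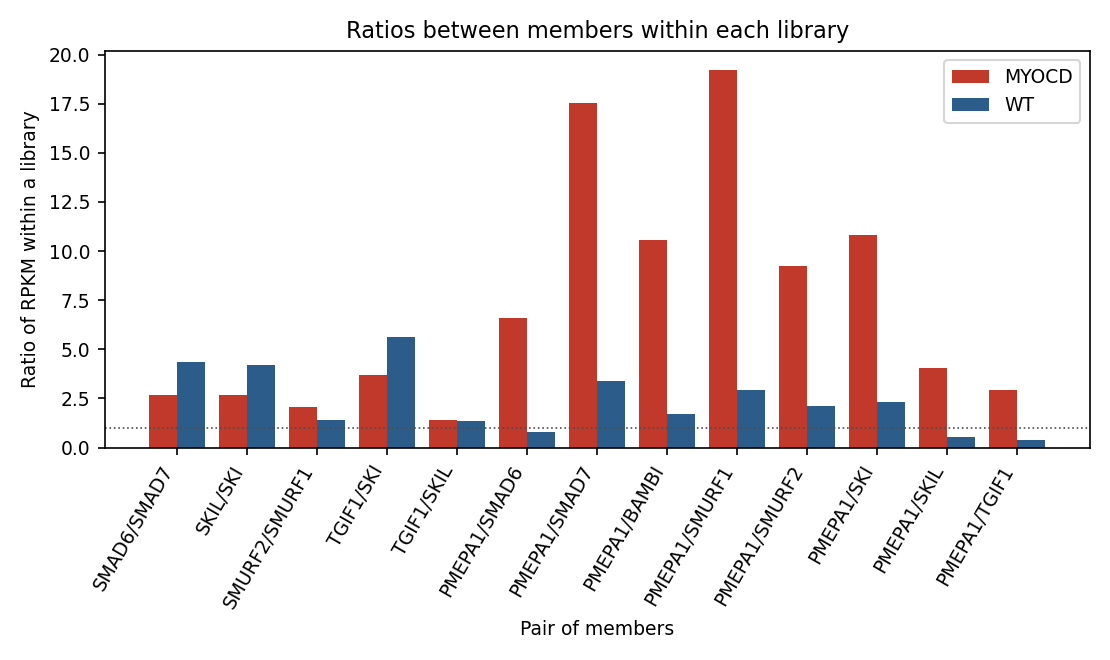
Ratios of RPKM between pairs of inhibitors within the MYOCD library (left bar of each pair) and the WT library (right bar), with a dotted line at 1. The PMEPA1 to SMAD7 ratio is 17.5 in MYOCD and 3.40 in WT cells, and ratios between the other members differ less between the libraries.

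Other genes of the pathway were taken from lists chosen with earlier results of these data known. Of 20 other negative regulators of TGF-beta and SMAD signalling, 18 were counted and 0 were at or beyond 2-fold, with 9 above and 9 below 0 and a median log2 change of -0.05. The most abundant were FKBP1A, which binds the type I receptor and keeps it quiet (262 RPKM in MYOCD and 231 RPKM in WT cells), and STRAP, a partner of SMAD7 (121 RPKM in MYOCD and 132 RPKM in WT cells). The 7 factors that degrade the inhibitors or protect the receptors from breakdown, among them USP11 (39.3 RPKM in MYOCD and 47.1 RPKM in WT cells) and UCHL5 (45.1 RPKM in MYOCD and 45.4 RPKM in WT cells), also had 0 at or beyond 2-fold and a median of 0.09. Partners of SKI, SKIL and TGIF1 in corepressor complexes had 0 of 15 at or beyond 2-fold, 12 above and 3 below 0, and a median of 0.15. Over all counted genes 11.8% were at or beyond 2-fold, and over the protein-coding ones 6.11%. In lists this short, each count of 0 is near those shares and shows no steadiness particular to the pathway. SAP18, a subunit of the SIN3 deacetylase complex, stood at 126 RPKM in MYOCD and 132 RPKM in WT cells.

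The ligands, receptors and signalling SMADs upstream of the inhibitors had 0 of 13 counted members at or beyond 2-fold and a median of -0.14. That count is near the share of 6.11% over counted protein-coding genes. TGFB1 stood at 105.9 RPKM in MYOCD and 113 RPKM in WT cells, and SMAD3 at 107 RPKM in MYOCD and 126 RPKM in WT cells. Of 21 counted genes known to be induced by TGF-beta, 10 were higher and 1 was lower by 2-fold or more, with a median of 1.00. The shares were 3.02% and 3.1% over counted protein-coding genes, and 5.42% and 6.35% over all counted genes. The list was not screened for genes that myocardin and SRF act on. Responses to TGF-beta and to MYOCD therefore cannot be told apart in it. On the log2 scale with the pseudocount, the largest differences were those of CDH2, the neural cadherin gene (24.3 RPKM in MYOCD and 2.76 RPKM in WT cells), the cytokine gene IL11 (31.3 RPKM in MYOCD and 5.48 RPKM in WT cells), COL1A1 (14.3 RPKM in MYOCD and 3.05 RPKM in WT cells) and the integrin gene ITGB6 (10.6 RPKM in MYOCD and 2.34 RPKM in WT cells). The 1 lower gene was CTGF, which encodes connective tissue growth factor, with 14.1 RPKM in MYOCD and 32.7 RPKM in WT cells. THBS1, at 16.4 RPKM in MYOCD and 32.4 RPKM in WT cells, lay under 2-fold with a log2 change of -0.96, and fibronectin (FN1) stood at 71.2 RPKM in MYOCD and 70.96 RPKM in WT cells. These 3 were named after their values were seen. The log2 changes of PMEPA1 (2.49) and of SMAD7 (0.13) and SKIL (-0.37), which TGF-beta also induces, all lay within this list's range of -1.18 to 2.93. That range therefore does not set the members apart, and a link of PMEPA1 to this list was not tested. Genes induced by BMP had 0 higher and 1 lower of 7 counted, beside 3.02% and 3.1% of counted protein-coding genes. In this list 2 lay above and 5 below 0, with a median of -0.58 and a range of -1.03 to 0.73. SMAD6 had a log2 change of -0.57, and a link of SMAD6 to this list was not tested. The lower gene was ATOH8, at 3.22 RPKM in MYOCD and 7.09 RPKM in WT cells, and it lay under 2-fold with a pseudocount of 1 RPKM or with the steady reference genes set to 0. ID3 stood at 182 RPKM in MYOCD and 267 RPKM in WT cells. The 2 above 0 were MSX1 (log2 change of 0.24) and MSX2 (0.73), named after their values were seen.

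**Figure D5:**
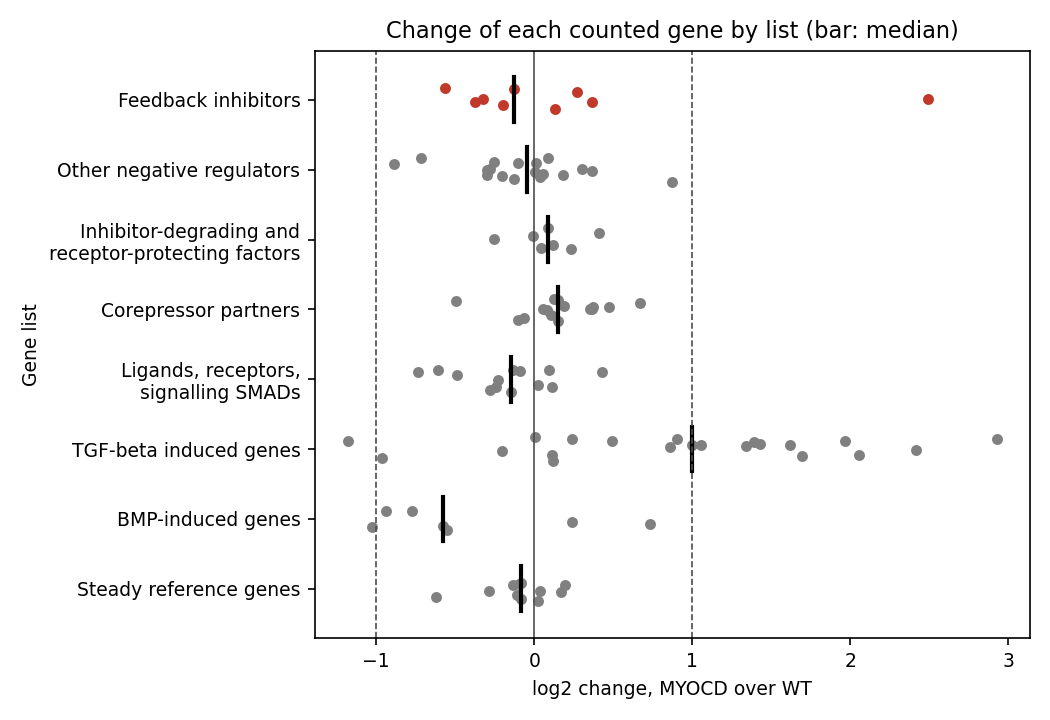
Log2 change of MYOCD over WT of each counted gene of the feedback inhibitors (red) and of 7 other lists (grey), with the median of each list as a bar and dashed lines at 2-fold. The inhibitors have a median of -0.13 with PMEPA1 alone beyond 2-fold, and the TGF-beta induced genes have a median of 1.00.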

How the data were processed

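Total RNA of 2 A549 cultures, 1 MYOCD and 1 WT, was made into libraries with a TruSeq RNA kit, per the labels' protocols. The authors deposited RPKM values, per the file headers, and a key in the file names each column's group. Bowtie 0.12.2 and the builds mm8 (mouse) and GRCh38.p12 are named without roles in the submitters' processing notes. The counting tool, annotation, library size and use of strand are not stated. Of 248 symbols on several of the 57979 rows, the row with the highest mean RPKM was used.

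Low RPKM of models with 1 transcript and at least 2000 nt were searched for steps of whole reads. Of them 26.2% in MYOCD and 26.1% in WT cells lay within 0.1 of a whole number of the commonest step, where chance gives 20%, so depth is unknown and no count test or interval was made. Gene positions and exon lengths came from GENCODE release 29 (GRCh38). Log2 changes were computed with Python 3.11.15, pandas 2.3.3 and numpy 2.4.6. The code was checked on WT values multiplied by fixed factors without noise, which says nothing about error in the libraries. Named genes were the members, MYOCD, up to 4 genes of each other list at or beyond 2-fold (the most abundant added up to 2) and the 3 protein-coding genes of like level nearest to PMEPA1 in log2 change. The values of 1 gene so chosen are not reported here. The overlapping genes that were named share exon with the gene they overlap, and NKILA was named after its value was seen. In the text, BMP7 and RBM38 were named as the extremes within 1 Mb of PMEPA1. The members and lists were chosen with earlier results of these data known. Alternatives changed the pseudocount, filter, scaling, fold rule and treatment of repeated symbols.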

Additional observations from a re-analysis of the deposited data

How the results depend on the processing

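Among the members past the RPKM filter, PMEPA1 was the 1 at or beyond the fold rule under each of the 10 alternative settings, and its log2 change ranged from 2.47 to 2.58. The other 8 counted members kept their signs and stayed under 2-fold under the 7 settings for which single values were computed. SMAD6 ranged from -0.57 to -0.48 and SMAD7 from 0.13 to 0.22. Among these settings, summing the rows of a symbol could not alter any member, PMEPA1 included, because each stood on 1 row. LDLRAD4, at levels under 1 RPKM and so not counted, ranged from 0.24 to 1.25, passing 2-fold with a pseudocount of 0.1 RPKM. The median of the members was 0.00 (0.0020) with no filter on low values, where LDLRAD4 enters. In the other lists together the genes past the fold rule numbered 25 with the 1.5-fold rule and 12 with the 2-fold rule, and the BMP-induced list had 0 past 2-fold with a pseudocount of 1 RPKM or with the steady reference genes set to 0. The median of the other negative regulators turned to 0.04 with the steady reference genes set to 0, which raised all changes by 0.09, and to 0.01 with no filter. No paired analysis was possible because each group has 1 library. Differences between the cultures, their handling and the library preparations cannot be told apart from MYOCD, and without depth the precision of low values is unknown.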
